A study of Mus musculus with 20 samples.

Results

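The 9 genes described here encode the pore-forming subunits of the AMPA receptors (Gria1, Gria2, Gria3 and Gria4) and of the kainate receptors (Grik1, Grik2, Grik3, Grik4 and Grik5). They were taken by gene symbol, a rule that uses no measured value, although the set was chosen with earlier results of these data known. All 9 were found among the 21937 genes of the RNA table. The libraries came from mouse neurons at day 10 of differentiation (strain label 159.2). The tested cultures were given 200 µM NMDA for 6 h and the control cultures DMSO alone for 6 h, with 2 RNA libraries in each group. NMDA activates the NMDA receptors, a class of glutamate receptors separate from the AMPA and kainate classes. The labels do not state how the neurons were made, or whether replicates were cultured separately. The p-values therefore reflect library-to-library spread alone, and that spread may be technical.

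AMPA receptors carry most of the fast excitatory current at synapses of the brain. They are assembled from the products of the Gria genes, and a receptor that contains the edited GluA2 subunit lets little calcium through. Kainate receptors are built from the Grik genes and act on both sides of the synapse. The products of Grik1, Grik2 and Grik3 can form channels by themselves, whereas those of Grik4 and Grik5 bind agonist tightly but need a partner from the first set.

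The reads recovered over all genes numbered 20149813 and 16833459 in the NMDA libraries and 20127348 and 15008112 in the DMSO libraries. Reads that were not assigned to a gene are not among them. The label of neurons was checked against marker genes. The 12 pan-neuronal markers summed to 140619 and 125630 normalised counts after NMDA, against 156120 and 164433 with DMSO. Transcripts of other cell types were present as well. The 8 fibroblast and mesenchyme markers summed to 201245 and 273968 counts after NMDA, against 108816 and 99357 with DMSO. The 4 microglia markers summed to at most 11.4 counts in any library. None of the pan-neuronal or fibroblast markers stood at 0 in all libraries. The values are the authors' normalised read counts per gene, not divided by transcript length. The levels of different genes are therefore not ranked.

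Several of the receptor subunit transcripts fell moderately after NMDA and none rose. Of the 9 genes, 5 fell, namely Gria2, Gria4, Grik1, Grik2 and Grik4, and 4 did not pass the test (limma on log2 of the count plus 1, Benjamini-Hochberg adjusted p under 0.05). Among all 13888 genes tested, 21.5% fell and 20.5% rose by the same rule. No member rose by this rule, against those 20.5%. At an unadjusted p under 0.05 by limma, the same 5 members were lower and 0 higher, against 25.8% and 25% of all genes, and Gria3 had an unadjusted p of 0.0553 (0.046 with TMM factors and 0.0474 by edgeR). The median log2 change was -0.31 over the 9 genes and -0.01 over all genes tested. The same number of members, 5, fell by edgeR, where 20.7% of all genes fell and 20.9% rose. DESeq2 also gave 5, where 16.7% fell and 16.3% rose. Neither tool called a rise among the 9. Both NMDA libraries lay below both DMSO libraries for 7 of the 9 genes, and above them for 1, Gria3. Over all tested genes these shares were 37.8% and 36.6%.

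**Figure D1:**
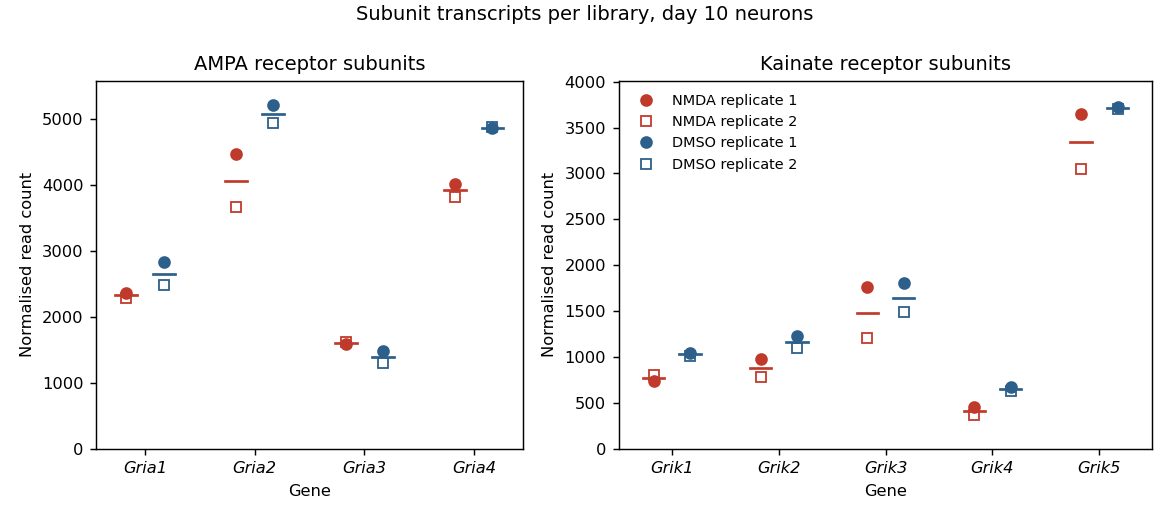
Normalised read counts (vertical axes, starting at 0) of the 4 AMPA and 5 kainate receptor subunit genes in each library. Circles are replicate 1, open squares replicate 2 and short lines group means. The NMDA points lie below the DMSO points for 7 genes, above them for Gria3, and among them for Grik3.

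Among the AMPA receptor genes, 2 of 4 fell. Gria2, which encodes the subunit that limits calcium entry, had 4459 and 3661 normalised counts after NMDA, against 5212 and 4934 with DMSO. The groups did not overlap, and the NMDA libraries lay further apart than the DMSO libraries. The log2 change was -0.33 ± 0.11 (SE, limma adjusted p = 0.0367), a ratio of 0.797. Gria4, whose subunit gates quickly and is prominent early in development and in some interneurons, had 4013 and 3813 counts after NMDA and 4854 and 4870 with DMSO. Both groups were tight, with means of 3913 ± 141 after NMDA and 4862 ± 11.4 with DMSO (SD, n = 2 each). The log2 change of Gria4 was -0.31 ± 0.08 (limma adjusted p = 0.0147).

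Gria1 encodes the subunit that is delivered to synapses during long-term potentiation. It had 2365 and 2285 counts after NMDA, against 2823 and 2479 with DMSO. Its NMDA libraries were the lower ones, but the difference did not pass (log2 change -0.19 ± 0.09, limma adjusted p = 0.129). Gria3 was the single member with higher values after NMDA. It had 1593 and 1616 counts after NMDA and 1488 and 1306 with DMSO. The groups did not overlap, yet the difference did not pass either (log2 change 0.20 ± 0.09, limma adjusted p = 0.107).

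Promoter sequences of RefSeq on the GRCm38.p6 build were matched for 6 of the 9 genes, Gria2, Gria4, Grik2, Grik3, Grik4 and Grik5. The deposited files use mm9, so these windows serve as context only. The promoter of Gria4, a gene with one of the tightest falls, is shown for the 250 bases before its annotated start, at chr9:4796235-4796484 on the minus strand. Capitals mark a match to the EGR motif GCGNGGGCG, which begins 20 bases before the start. EGR proteins are transcription factors induced by neuronal activity.

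Gria4 promoter: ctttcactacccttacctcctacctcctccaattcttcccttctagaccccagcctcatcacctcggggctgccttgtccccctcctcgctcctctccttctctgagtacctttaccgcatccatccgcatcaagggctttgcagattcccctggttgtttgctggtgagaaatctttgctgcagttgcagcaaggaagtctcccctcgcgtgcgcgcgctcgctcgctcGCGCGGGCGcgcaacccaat

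A total of 9 letter patterns were searched on both strands in windows from 250 bases before to 50 after the start. The patterns were tried in an exploratory search, and the stretches to show were picked after the matches had been seen. The CRE (TGACGTCA), AP-1 (TGANTCA) and E-box (CACGTG) letters, which bind factors that include activity-regulated ones, were in none of the 6 member windows. They were in 1.79%, 7.81% and 7.15% of all 32851 windows. The core letters of the NPAS4 motif (TCGTG) were in 16% of all windows and in none of the members. The EGR letters were in 5.55% of all windows and, among members, in that of Gria4. The GC box GGGCGG was in 35.7% of all windows and in those of Grik3, Grik4 and Grik5. The CRE half-site TGACG was in 20.8% of all windows and, among members, in that of Grik2. Of the element RE1, bound by a repressor of neuronal genes, the right part GGACAG was in 22.2% of all windows and, among members, in that of Gria2. The left part of RE1 (TTCAGCACC) was in 0.371% of all windows and in no member. The EGR and GC box letters can overlap, and the full CRE holds its half-site. Longer patterns for NRF1, MEF2 and SRF were tried in the exploratory search as well and are not tabulated here. Of these, that for NRF1 matched in the window of Gria2, and those for MEF2 and SRF matched in no member. Their shares over all windows are not given here, so these matches cannot be set against a background.

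Stretches around 1 match in each of the 4 genes that fell and had a window are set side by side, with the match in capitals. They lie at chr3:80802988-80803017 (Gria2), chr9:4796235-4796264 (Gria4), chr10:49788741-49788770 (Grik2) and chr9:42944546-42944575 (Grik4), all on the minus strand. Those of Gria2 and Grik2 show the motif as its reverse complement.

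Gria2, RE1 right part: gggaccaaagcgCTGTCCgcggtgctaaaa
Gria4, EGR: tcgctcgctcGCGCGGGCGcgcaacccaat
Grik2, CRE half-site: ggtctccgccgcCGTCActtgcgctctcgc
Grik4, GC box: tcactgcccgccGGGCGGcgcctcagcgcc

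None of the 9 patterns was shared between these 4 genes. A match is a description of the letters and not a binding site.

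Among the kainate receptor genes, 3 of 5 fell, and the size of the change differed between members. Grik4, which encodes one of the subunits that need a partner, had the lowest log2 change of the 9. It had 452 and 371 normalised counts after NMDA, against 678 and 631 with DMSO. The groups stood well apart. The log2 change was -0.67 ± 0.12 (limma adjusted p = 0.00325), a ratio of 0.627, and 6.51% of all tested genes had a lower one.

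Grik1, whose subunit is known from interneurons and sensory neurons, had 736 and 801 counts after NMDA and 1045 and 1013 with DMSO. Its log2 change was -0.42 ± 0.09 (limma adjusted p = 0.0069). Grik2, a widely expressed subunit gene, had 979 and 778 counts after NMDA and 1229 and 1102 with DMSO. The log2 change of Grik2 was -0.41 ± 0.12 (limma adjusted p = 0.025). For both genes the groups did not overlap, and Grik2 varied more between its NMDA libraries than Grik1 did.

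Grik3 and Grik5 did not pass. Grik3 had 1760 and 1202 counts after NMDA and 1803 and 1490 with DMSO. The groups overlapped, since NMDA replicate 1 lay above DMSO replicate 2 (log2 change -0.17 ± 0.17, limma adjusted p = 0.443). Grik5, the other gene whose product needs a partner, had 3646 and 3046 counts after NMDA and 3723 and 3699 with DMSO. NMDA replicate 1 differed little from the DMSO libraries and NMDA replicate 2 was lower (log2 change -0.16 ± 0.10, limma adjusted p = 0.242). In the RefSeq annotation Grik5 overlaps the protein-coding gene Zfp574. Zfp574 had 558 and 522 counts after NMDA and 1047 and 1047 with DMSO, and reads from the shared stretch cannot be told apart without strand.

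**Figure D2:**
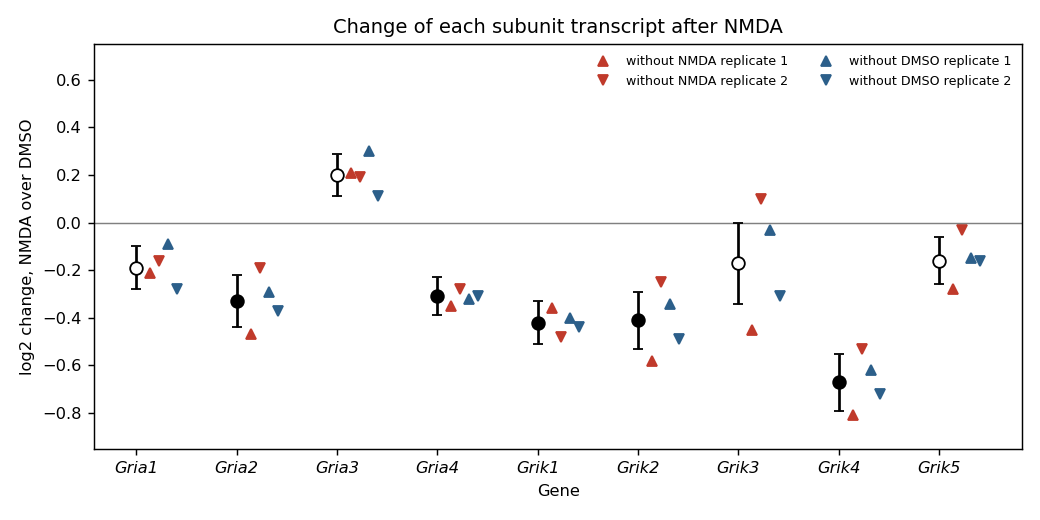
Log2 change of each subunit gene, NMDA over DMSO (vertical axis). Black circles show the value on all 4 libraries with its standard error, filled where the limma adjusted p was under 0.05, and triangles show the value with 1 library left out. Grik4 stays between -0.81 and -0.53, while Grik3 runs from -0.45 to 0.10.

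The calls depended on which libraries were in the fit. Without DMSO replicate 1, 0 of the 9 passed by limma, with 3 falls and 1 rise at an unadjusted p under 0.05. In that fit the adjusted p was 0.0529 for Grik4, 0.0887 for Grik1, 0.147 for Gria4, 0.205 for Grik2 and 0.251 for Gria2. Over all genes, the falls then numbered 915, against 2979 with all libraries. Without DMSO replicate 2, Grik4 passed (adjusted p = 0.0279), and Grik1 (0.0565), Grik2 (0.0724), Gria4 (0.134) and Gria2 (0.139) did not. Without NMDA replicate 2, Gria2 (0.11) and Grik2 (0.0973) did not pass, Grik3 had a log2 change of 0.10 and the median of the 9 genes was -0.19. Without NMDA replicate 1 there were 7 falls, Grik3 (adjusted p = 0.0194) and Grik5 (0.0181) being the added ones. With quantile normalisation Gria2 (0.079) and Grik2 (0.0593) did not pass and Gria3 did (log2 change 0.30, adjusted p = 0.0323).

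The makeup of each family was compared as the share of its reads that each gene took. A share also depends on transcript length, so only its difference between libraries is read. For these shares an exact permutation test over 2 against 2 libraries cannot give a 2-sided p below 0.333. Gria2 took 35.9% of the AMPA subunit reads in NMDA replicate 1 (exact binomial 95% interval 35.1% to 36.7%) and 32.2% in NMDA replicate 2 (31.3% to 33.1%). With DMSO it took 36.3% in both replicates (35.5% to 37.0% and 35.4% to 37.2%). NMDA replicate 1 thus did not differ from the DMSO libraries beyond counting error, and NMDA replicate 2 was lower. The mean difference of the Gria2 share was -2.25 percentage points (exact permutation p = 0.333), and it was -0.405 without NMDA replicate 2 and -4.09 without NMDA replicate 1.

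Gria3 took 12.8% and 14.2% of the AMPA reads after NMDA, against 10.4% and 9.61% with DMSO. Its intervals in the NMDA libraries, 12.3% to 13.4% and 13.6% to 14.9%, lay above those in the DMSO libraries, 9.88% to 10.8% and 9.08% to 10.2%. The difference was 3.53 points (exact permutation p = 0.333, the smallest the design allows). The share of Gria4 was 32.3% and 33.5% after NMDA and 33.8% and 35.8% with DMSO. That of Gria1 overlapped between groups.

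Within the kainate family, Grik4 took 5.97% and 5.99% of the reads after NMDA, against 8.0% and 7.95% with DMSO. The replicates lay closer together than the groups, with a difference of -1.99 points (exact permutation p = 0.333). Grik5 took 48.1% and 49.1% after NMDA and 43.9% and 46.6% with DMSO, a difference of 3.37 points (exact permutation p = 0.333). Grik2 took 12.9% and 12.6% after NMDA and 14.5% and 13.9% with DMSO. The shares of Grik1 and Grik3 overlapped between groups. The intervals cover counting error only.

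**Figure D3:**
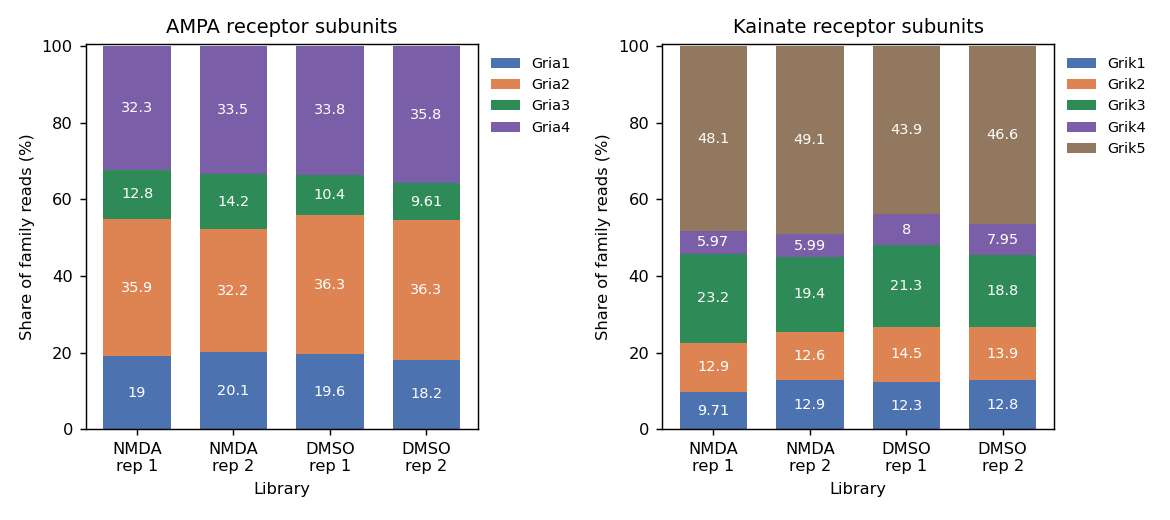
Share of each gene in the reads of its family (vertical axis, percent) in the 4 libraries. The numbers in the bars are the shares. The Gria3 band is wider in both NMDA libraries and the Grik4 band narrower.

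The summed AMPA subunit counts were 12429 and 11375 after NMDA and 14378 and 13589 with DMSO. The kainate subunits summed to 7573 and 6199 counts after NMDA, against 8478 and 7935 with DMSO. The log2 ratio of the group means was -0.23 for the AMPA sum and -0.25 for the kainate sum, and -0.27 for the sum of the pan-neuronal markers. These sums of each group did not overlap (exact permutation p = 0.333 for each, the smallest the design allows). Causes such as fewer neurons, less RNA per neuron and more RNA from other cells cannot be told apart in bulk RNA, and none was tested.

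The subunits were also set against the pan-neuronal markers of the same library, a scaling chosen after their values were seen. It raises the log2 ratio of every gene by about 0.27, since the sum of those markers was lower by that amount. Single markers differed, with log2 changes from -0.81 for Nefm to 0.00 for Stmn2 and 0.26 for Elavl4. Another choice of markers would therefore shift the ratios by another amount. Per 100 pan-neuronal counts, the AMPA subunits had 8.84 and 9.05 after NMDA and 9.21 and 8.26 with DMSO, and the log2 ratio turned to 0.03. The kainate subunits had 5.39 and 4.93 after NMDA and 5.43 and 4.83 with DMSO, and their log2 ratio turned to 0.01. On this scale the groups overlapped for both families (exact permutation p = 1 for each). For 1 gene, Grik4, both NMDA libraries lay below both DMSO libraries on this scale, and for Gria3 and Grik5 they lay above (exact permutation p = 0.333 for each). Over all tested genes these shares were 16.4% and 57.6%. Grik4 had 0.322 and 0.296 per 100 pan-neuronal counts after NMDA, against 0.434 and 0.384 with DMSO. Gria3 had 1.13 and 1.29 after NMDA, against 0.953 and 0.795 with DMSO. Grik5 had 2.59 and 2.42 after NMDA and 2.38 and 2.25 with DMSO, higher after NMDA on this scale although lower on the authors' scale.

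**Figure D4:**
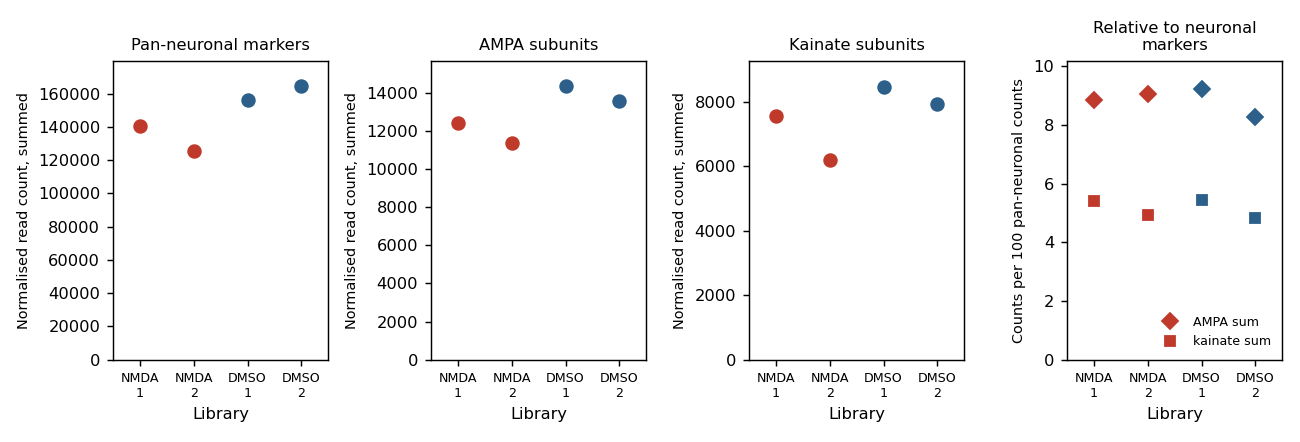
Summed normalised counts of the 12 pan-neuronal markers, the 4 AMPA and the 5 kainate subunits in each library (vertical axes, starting at 0), and both subunit sums per 100 pan-neuronal counts. NMDA libraries are red and DMSO libraries blue. The 3 sums are lower in both NMDA libraries, while the relative values overlap.

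Markers of other cells moved in the same libraries, and their counts are set against the 20.5% of all tested genes that rose and the 21.5% that fell. All 8 fibroblast and mesenchyme markers and all 8 neural progenitor markers rose, with median log2 changes of 1.13 and 0.91. Without DMSO replicate 1, 4 of the progenitor markers rose. The progenitor markers summed to 23935 and 32008 counts after NMDA and 13200 and 15763 with DMSO. Of 6 astrocyte markers tested, 5 rose (median 0.76, sums of 12687 and 18516 after NMDA against 8445 and 9858 with DMSO), and there were 3 rises without NMDA replicate 2 or DMSO replicate 2 and 1 without DMSO replicate 1. Of 5 oligodendrocyte lineage markers tested, 3 rose (median 0.87, sums of 1702 and 2137 against 1353 and 1275). No marker of these lists stood at 0 in all libraries. Of the 12 pan-neuronal markers, 7 fell and 1 rose (median -0.35), and 3 fell without DMSO replicate 1 and likewise without DMSO replicate 2. NMDA replicate 2 was the lower of the NMDA libraries for 7 of the 9 subunit genes, and it had the highest fibroblast sum and the lowest pan-neuronal sum. The part of these cells in the subunit changes was not tested. Both glutamatergic and GABAergic markers were present. The vesicular glutamate transporter Slc17a6 had 3798 and 3296 counts after NMDA and 3965 and 3969 with DMSO, and Gad1, a GABA synthesis enzyme, 5231 and 3618 after NMDA and 5422 and 4354 with DMSO. Neither passed. Slc17a7, the other vesicular glutamate transporter of the list, had 9.66 and 10.5 counts after NMDA and 13.5 and 18.0 with DMSO. Of the 2 glutamatergic markers 0 passed by limma, edgeR or DESeq2 (0 at an unadjusted p under 0.05 by limma). Of the 3 GABAergic markers 1 fell, the vesicular transporter Slc32a1, whose call was lost without DMSO replicate 1 (adjusted p = 0.105) or DMSO replicate 2 (0.0789). Without NMDA replicate 1 the median log2 change was -0.45 for the GABAergic and -0.40 for the glutamatergic markers. With all libraries these medians were -0.16 and -0.37.

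Auxiliary subunits bind the pore and set its trafficking and kinetics. Of 14 tested, 4 fell and 10 did not pass, with a median log2 change of -0.18. A share of 21.5% of all tested genes fell, so this count is near the background. Of the stargazin family genes, Cacng2 and Cacng5 fell. Cacng2, which encodes stargazin, had 675 and 590 counts after NMDA and 868 and 908 with DMSO (log2 change -0.49 ± 0.10, limma adjusted p = 0.00575). Cacng5 had 119 and 130 counts after NMDA and 209 and 315 with DMSO (log2 change -1.04 ± 0.20, limma adjusted p = 0.00428). Cacng3, Cacng4, Cacng7 and Cacng8 did not pass, with log2 changes of -0.39 ± 0.24, 0.02, 0.07 and -0.16. Cacng3 had 328 and 185 counts after NMDA and 346 and 302 with DMSO, and it passed without NMDA replicate 1 (log2 change -0.80, adjusted p = 0.00415). The partners of kainate receptors, Neto1 and Neto2, fell with log2 changes of -0.40 ± 0.09 and -0.27 ± 0.08 (limma adjusted p = 0.00986 and 0.0285). Without DMSO replicate 1 or DMSO replicate 2, Cacng5 was the 1 gene of the 14 that fell, while Cacng2 (adjusted p = 0.0557 and 0.0643), Neto1 (0.126 and 0.0517) and Neto2 (0.128 and 0.255) did not pass. Neto2 did not pass with quantile normalisation either (0.146). The median was 0.02 without NMDA replicate 2 and -0.32 without NMDA replicate 1.

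Proteins that assemble, anchor and move these receptors gave 7 falls and 1 rise among 18, with a median of -0.20, against 21.5% and 20.5% of all tested genes. Akap5, an anchor of kinases and calcineurin at the receptor, had 393 and 352 counts after NMDA and 686 and 681 with DMSO (log2 change -0.87 ± 0.10, limma adjusted p = 0.000825). Grip1 and Grip2, scaffolds that bind the tails of GluA2 and GluA3, had log2 changes of -0.86 ± 0.13 and -0.40 ± 0.10. Among the scaffolds of the PSD-95 family, Dlg3 and Dlg2 fell, with log2 changes of -0.61 ± 0.08 and -0.78 ± 0.13. Epb41l1, listed under an older symbol and known to bind GluA1, had a log2 change of -0.49 ± 0.12. The limma adjusted p of these 5 genes was at most 0.0116. Dlg1, encoding SAP97, was the single rise and is named here after its value was seen. It had 978 and 1174 counts after NMDA and 793 and 807 with DMSO (log2 change 0.42 ± 0.11, limma adjusted p = 0.0134). Without DMSO replicate 1 or DMSO replicate 2, the falls numbered 4, those of Akap5, Grip1, Dlg2 and Dlg3. Grip2 (adjusted p = 0.11 and 0.0813), Epb41l1 (0.134 and 0.0735) and Dlg1 (0.114 and 0.0816) did not pass in these fits. There were 11 falls without NMDA replicate 1.

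Of 7 extracellular and trans-synaptic partners, 1 fell and 1 rose (median 0.03). Among all tested genes 21.5% fell and 20.5% rose, so neither count exceeds the background. Lrrtm1, a postsynaptic adhesion gene, had 507 and 389 counts after NMDA and 701 and 639 with DMSO (log2 change -0.59 ± 0.14, limma adjusted p = 0.00944). C1ql3, a secreted synaptic organiser of the C1q family, had 127 and 148 counts after NMDA and 95.2 and 75.4 with DMSO (log2 change 0.69 ± 0.19, limma adjusted p = 0.0186). Without DMSO replicate 1 neither passed (adjusted p = 0.103 for Lrrtm1 and 0.0522 for C1ql3). C1ql3 did not pass without DMSO replicate 2 (0.137) or NMDA replicate 2 (0.0819), with quantile normalisation (0.0574) or by DESeq2 (0.0624) either. Grid1, a relative of the AMPA and kainate genes, fell by limma (log2 change -0.52 ± 0.10, adjusted p = 0.0043) but did not pass without DMSO replicate 1 (adjusted p = 0.0709).

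All 3 genes of the ADAR family fell, against 21.5% of all tested genes. ADAR enzymes convert adenosine to inosine in RNA, and Adarb1 encodes the one that edits the codon of the calcium-limiting position of Gria2. Adarb1 had 1162 and 938 counts after NMDA, against 1683 and 1678 with DMSO (log2 change -0.69 ± 0.11, limma adjusted p = 0.00213). Adar had 3372 and 2728 counts after NMDA and 4921 and 4651 with DMSO (log2 change -0.66 ± 0.11, limma adjusted p = 0.0025). Adarb2, for which no editing activity is known, had 281 and 249 counts after NMDA and 597 and 505 with DMSO (log2 change -1.05 ± 0.13, limma adjusted p = 0.000875). The 3 falls held in each fit that left out 1 library. Gene counts do not show whether Gria2 transcripts were edited.

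**Figure D5:**
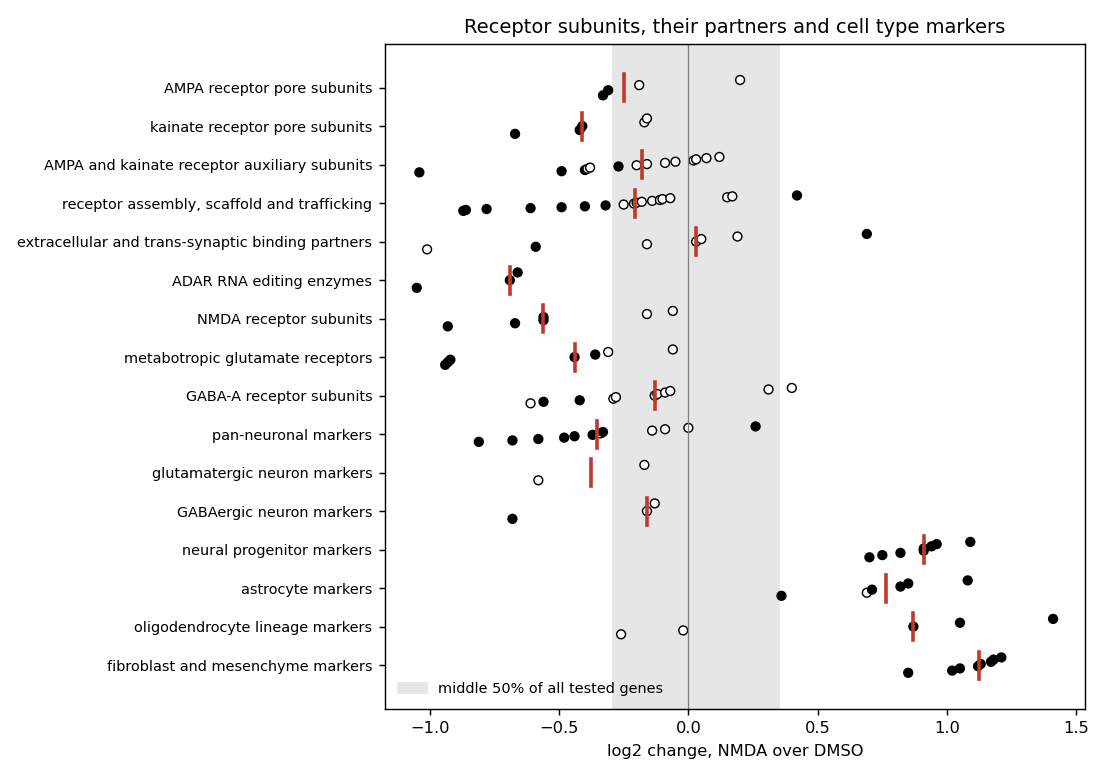
Log2 change, NMDA over DMSO (horizontal axis), of the subunit genes, their partner lists, other receptor families and cell type markers. Each point is a gene, filled where the limma adjusted p was under 0.05, red bars are list medians, and the grey band holds the middle 50% of all tested genes. The AMPA and kainate medians are -0.25 and -0.41, and the fibroblast median is 1.13.

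Other receptor families were set beside the 9 genes without a test of the difference, and 21.5% of all tested genes fell. Of 6 NMDA receptor subunit genes tested, 4 fell (median -0.56), of 7 metabotropic glutamate receptor genes 5 fell (median -0.44), and of 11 GABA-A receptor subunit genes 2 fell (median -0.13). The AMPA genes had a median of -0.25 and the kainate genes one of -0.41. Without DMSO replicate 1 or DMSO replicate 2 the falls numbered 2 for NMDA receptors and by limma 0 for GABA-A receptors, with 2 and 3 GABA-A genes lower at an unadjusted p under 0.05. For metabotropic receptors there were 2 without DMSO replicate 1 and 3 without DMSO replicate 2 or NMDA replicate 2. GABA-A receptors had 5 falls without NMDA replicate 1 and 1 without NMDA replicate 2. Without NMDA replicate 2 the medians were -0.34 for NMDA receptors, 0.03 for GABA-A receptors and -0.25 for kainate receptors.

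The genes with the most similar pattern over the 4 libraries were found by the Euclidean distance between mean-centred log2 values, among 11986 other genes with a mean of at least 50 counts. For Gria2 they were Ak5, Sh3gl2 and Ggt7, at distances of 0.0186, 0.0234 and 0.0253. For Grik2 they were Creg2, Pde4a and Atg9a, at distances of 0.0205, 0.027 and 0.0278. The likeness rests on 4 libraries and is a description.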

How the data were processed

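RNA was measured in 2 NMDA and 2 DMSO libraries of day 10 neurons, grouped and numbered by their titles. The authors deposited a signal per gene, named in the file as normalised read counts, with 1 column per library. Per the submitters' processing notes, TopHat, Bowtie, HTSeq and DESeq were used with the mm9 build. Tool versions and roles, the annotation and the strandedness are not given in these sources. Within a library nearly all values were multiples of the worth of 1 read, between 0.8779 and 1.1975 counts per read. At a tolerance of 0.0051, 99.9499% to 99.9909% came out whole, which gave the reads. A member had 354 to 5806 reads per library, so counting error was at most 5.31%.

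Genes with a mean of at least 10 counts over the 4 libraries (13888 of 21937) entered limma-trend (version 3.58.1 under R 4.3.3) as log2(count + 1). The group was the only term, the tests were 2-sided, and p-values were Benjamini-Hochberg adjusted over all genes and called under 0.05. Changes are given on that log2 scale. The alternatives were edgeR 4.0.16 (quasi-likelihood) and DESeq2 1.42.0, both run on recovered reads, and other pseudocounts, filters and scalings and the omission of single libraries, for which the same genes were tested. A lone library of a group was assumed to vary like the other group. The fit was tested on simulated data. Far fewer genes changed in those than were called here, so the error rate on data like these was not tested. Of 131 list genes, 127 matched by current symbol and 4 by an older one. From each list the text names at most 6 called members, lowest p first, or its 2 most abundant members if it had no call, and a few others chosen after their values were seen. Not all are printed, and 1 list gene is not reported here. The members and lists were chosen with earlier results of these data known. The chromatin tables give regions without a gene or position and were not used here.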

Additional observations from a re-analysis of the deposited data

How the results depend on the processing

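The direction and the side of the threshold of all 9 subunit genes were the same with pseudocounts of 0.5 and 8, without a filter on low values, with a minimum mean of 50, with TMM factors, by edgeR and by DESeq2. With quantile normalisation 3 members fell and 1 rose. Leaving out 1 library at a time gave between 0 and 7 falls among the members and, over all genes, between 915 and 3334 falls and between 1069 and 3033 rises. Such fits have fewer libraries, and those without a DMSO library made the fewest calls. The log2 change of Grik3 ran from -0.45 to 0.10 in these fits. Per 100 pan-neuronal counts, an alternative added after the data were seen, the log2 ratio turned positive for Gria1 (0.08), Grik3 (0.10) and Grik5 (0.11), and that of Gria3, positive on both scales, was 0.47. The cause of these differences was not tested.

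With the replicate number as a block there were 6 falls and 1 rise among the members, Gria1 (adjusted p = 0.0475) and Gria3 (0.0333) being the added calls, and 3782 falls and 3685 rises over all genes. The share difference of Gria2 was -2.25 points with this pairing as without it, since pairing cannot change a difference of group means here. The deviations of same-numbered libraries from their group means correlated with r = 0.343 over 13888 genes. There are only 2 pairs, and no label ties the numbers to a shared culture or day. Whether same-numbered libraries share more than a number is therefore not known.

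With 2 libraries a group, no single share or sum can pass an exact test, whatever its depth.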
